A study of Mus musculus with 8 samples.

Results

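The 10 genes described here code for proteins of the Z-disc and the intercalated disc of heart muscle that are known for their part in mechanical stress: Xirp1, Xirp2, Nrap, Synpo2l, Flnc, Actn2, Ldb3, Myoz2, Csrp3 and Des. They were listed by name, by a rule that holds no measured value but was written with earlier results of these data known, and make up 10 of the 38293 gene identifiers in the count table. The 10 genes all passed the filter on low counts, with 2448 to 66757 counts per gene and library. The study sequenced polyadenylated RNA from left ventricles of the C57BL/6J mouse strain. Hearts underwent ischemia-reperfusion, a temporary tie of the left anterior descending coronary artery followed by reflow. The myocardium then received 2 injections of 10 µl of UPy-PEG hydrogel, a supramolecular polymer gel that serves as a drug depot. The gel was loaded with antimiR-195, an antisense oligonucleotide that blocks the microRNA miR-195, for 4 libraries, and carried no drug for the other 4, and tissue was taken on day 3. Both groups thus carry the injury and the gel, and no uninjured or gel-free heart is part of the comparison. The labels do not say whether each library is a different mouse, so p-values measure the spread between libraries, which may be technical.

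The Z-disc is the plate at each end of a sarcomere in which actin filaments of opposite polarity are cross-linked by alpha-actinin. The intercalated disc joins neighbouring cardiomyocytes end to end, and its adherens junctions take over the actin filaments of the last sarcomere. Many proteins of both sites sense stretch or repair damage, and mutations of several of them are known causes of inherited cardiomyopathy.

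The sequence that the drug targets was first set against the 10 transcripts. Mature miR-195a-5p (mouse, chr11:70235062-70235082 of GRCm38.p6, plus strand) is shown with 4 related microRNAs, because an inhibitor of one member of a seed family is read against sites shared by all of them. Capitals mark the seed, bases 2 to 8, which was the same in these 5 sequences, taken from RefSeq.
mmu-miR-195a-5p: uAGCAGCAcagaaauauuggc
mmu-miR-497a-5p: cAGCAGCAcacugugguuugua
mmu-miR-15a-5p: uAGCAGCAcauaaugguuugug
mmu-miR-15b-5p: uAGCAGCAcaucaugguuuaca
mmu-miR-16-5p: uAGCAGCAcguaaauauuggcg
A match to this seed is TGCTGCT, or GCTGCTA where bases 2 to 7 pair and an A follows, and overlapping forms were counted as 1 site. None of the 10 genes held either run of letters on the transcript strand of its longest annotated 3′ UTR (GENCODE release M21). Among all 12868 tested genes with an annotated 3′ UTR, 3671 (28.5%) held a match. Several UTRs were short: 68 bases in Actn2, 160 in Nrap, 177 in Myoz2 and 232 in Csrp3, and among genes of 80% to 125% of those lengths only 2.48% to 5.79% held a match. The longest were Ldb3 with 2857 bases and Xirp1 with 2271 bases, and 47.4% and 40.7% of genes with UTRs of like length held one. The absence of these letters says nothing about coding-sequence or imperfect sites.

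In the 250 bases before the annotated start, taken from RefSeq for 9 of the 10 genes, 3 motifs known from muscle promoters were searched on both strands. They were the MEF2 element, the CArG box of serum response factor, and the MCAT element CATTCC. The MEF2 element occurred in Xirp2, Myoz2 and Synpo2l, the CArG box in Ldb3, and MCAT in Flnc. Des, Csrp3, Actn2 and Nrap held no match in these windows. Over all genes of the table, 3.42% held a MEF2 match, 1.62% a CArG box and 14.4% an MCAT. The 4 promoters printed here belong to the pairs of genes that moved together most closely across libraries, Xirp2 with Flnc and Csrp3 with Myoz2 (the values follow the member levels). They are written 5′ to 3′ on the gene's strand, with motif matches in capitals. Their positions on GRCm38.p6 are chr2:67445752-67446001 (plus strand) for Xirp2, chr6:29433006-29433255 (plus) for the downstream of the 2 starts of Flnc, chr7:48848052-48848301 (minus) for the upstream of the 2 starts of Csrp3, and chr3:123034988-123035237 (minus) for Myoz2.
Xirp2: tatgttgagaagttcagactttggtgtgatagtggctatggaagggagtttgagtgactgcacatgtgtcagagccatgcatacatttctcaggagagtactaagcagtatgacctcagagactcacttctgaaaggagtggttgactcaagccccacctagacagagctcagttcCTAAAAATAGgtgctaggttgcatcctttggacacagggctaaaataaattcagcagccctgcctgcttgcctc
Flnc: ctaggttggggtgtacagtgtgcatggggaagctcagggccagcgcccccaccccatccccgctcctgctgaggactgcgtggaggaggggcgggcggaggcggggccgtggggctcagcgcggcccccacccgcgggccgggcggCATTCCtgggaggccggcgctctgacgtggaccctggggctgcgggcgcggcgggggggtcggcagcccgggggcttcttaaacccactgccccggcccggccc
Csrp3: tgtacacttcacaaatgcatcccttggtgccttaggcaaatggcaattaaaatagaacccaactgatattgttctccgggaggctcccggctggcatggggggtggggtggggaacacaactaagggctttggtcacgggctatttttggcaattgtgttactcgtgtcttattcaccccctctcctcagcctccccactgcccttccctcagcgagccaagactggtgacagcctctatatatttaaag
Myoz2: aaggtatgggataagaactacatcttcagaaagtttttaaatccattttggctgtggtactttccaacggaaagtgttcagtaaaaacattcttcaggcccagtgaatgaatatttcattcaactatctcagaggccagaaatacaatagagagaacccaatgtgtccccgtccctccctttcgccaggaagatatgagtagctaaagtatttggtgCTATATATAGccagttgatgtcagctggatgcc
The Xirp2 match CTAAAAATAG starts 74 bases upstream of the first transcribed base, and the Myoz2 match CTATATATAG starts 33 bases upstream. The MCAT of Flnc starts 104 bases upstream. Within neither pair was a motif shared, and a match is a description of letters, not a bound site.

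Depth was 16872968 to 22751753 gene counts per library. Levels are given as CPM, counts divided by the depth of the library and scaled by edgeR's TMM factors of 0.953 to 1.04. The library of antimiR-195 replicate 2 stood apart: its log2 CPM values correlated with those of other libraries at r = 0.944 to 0.970, across genes. Each of the other libraries had a highest correlation of 0.988 to 0.991 with another library. Mitochondrial transcripts held 9.42% of its counts, against 16.9% to 22.4% in the other antimiR-195 libraries and 17.3% to 21.7% in the hydrogel libraries. Short transcripts were relatively more abundant in it, as the slope given after the relations shows. Values without it are given for members and lists where they differ. The 10 cardiomyocyte sarcomere genes used as a reference (Myh6, Tnnt2, Tnni3, Tnnc1, Mybpc3, Actc1, Tpm1, Myl2, Myl3 and Ttn) summed to 72609 to 97574 CPM in the antimiR-195 libraries and 72267 to 89588 CPM in the hydrogel libraries, so the tissue had the transcripts of heart muscle.

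With antimiR-195, 7 of the 10 genes had a log2 fold change above 0 and 3 below 0, and none passed the test. The tally was 5 above and 5 below 0 without antimiR-195 replicate 2, without hydrogel replicate 2, with limma-voom quality weights and with a sarcomere covariate. It was 4 above and 6 below, with a median of −0.022, in a setting added after the data had been seen. That setting left out antimiR-195 replicate 2 and removed the trend of abundance with gene length. Among all 13972 tested genes, 52.4% were above 0 and 47.6% below. At a Benjamini-Hochberg adjusted p under 0.05 in edgeR's quasi-likelihood test, 0 of the 10 genes were called, as were 0% of all genes. At an unadjusted p under 0.05 the members' count was again 0, against 178 genes (1.27%) over the whole table, and the smallest p of a member was 0.138 (Synpo2l). DESeq2, limma-voom and limma-trend likewise called 0 members. No member had 2 groups that did not overlap, while 1.07% of all genes did. The median log2 fold change was 0.04 for the members and 0.01 for all tested genes. With antimiR-195 replicate 2 left out the members' median was 0.016, and with hydrogel replicate 2 left out 0.0075. The 95% intervals of the 10 fold changes ran from −0.47 to 0.49 on the log2 scale at their widest, so differences inside these intervals could not be told from 0 with these libraries. In tissue RNA, fewer cardiomyocytes and less RNA per cardiomyocyte cannot be told apart for any of these genes. The adjusted p-values of the members were all at least 0.9999, and only unadjusted p-values are given beside the genes below.

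**Figure D1:**
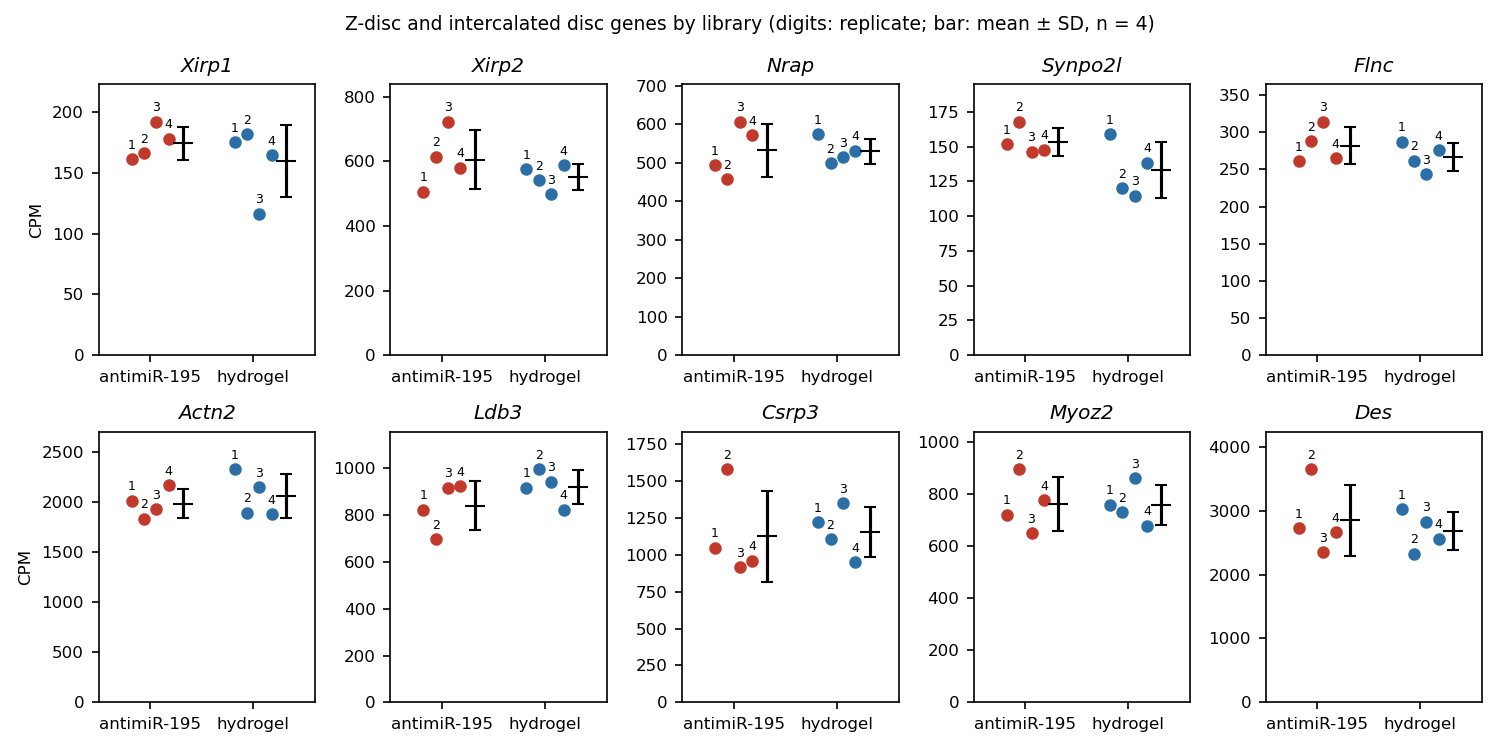
TMM-scaled CPM (vertical axis, linear, one panel per gene) of the 10 genes in the antimiR-195 libraries (left of each panel) and the hydrogel libraries (right), with the replicate number at each point and the mean ± SD of 4 libraries. The groups overlap in every panel, and antimiR-195 replicate 2 is the highest library for Csrp3, Des, Myoz2 and Synpo2l.

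Xirp1 and Xirp2 code for Xin and its relative, actin-binding repeat proteins that lie at the intercalated disc and at sites of myofibril damage. Xirp1 (ENSMUSG00000079243, chr9:120013755-120023598, minus strand) had 162, 166, 192 and 178 CPM in antimiR-195 replicates 1 to 4, against 176, 182, 116 and 165 CPM in hydrogel replicates 1 to 4. The low value of hydrogel replicate 3 stood below the other 7 libraries, and those 7 were intermixed. The means were 175 ± 13.7 CPM with antimiR-195 and 159.7 ± 29.7 CPM with drug-free hydrogel (SD, n = 4 each), a log2 fold change of 0.13 ± 0.15 (SE) with a 95% interval of −0.20 to 0.46 (edgeR quasi-likelihood test across all genes, unadjusted p = 0.407). Without hydrogel replicate 3 the log2 fold change was 0.0040. Xirp1 overlaps the chemokine receptor gene Cx3cr1 on the same strand, which held 1926 counts over all libraries, against 24829 for Xirp1.

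Xirp2 (ENSMUSG00000027022, chr2:67446002-67526614, plus strand) had 506, 614, 722 and 579.5 CPM in antimiR-195 replicates 1 to 4, against 575, 542, 498 and 588 CPM in hydrogel replicates 1 to 4. The highest library was antimiR-195 replicate 3 and the lowest hydrogel replicate 3, with antimiR-195 replicate 1 almost as low. The means were 605 ± 89.9 CPM with antimiR-195 and 551 ± 40.3 CPM with drug-free hydrogel (SD, n = 4 each), and the log2 fold change was 0.14 ± 0.14 with an interval of −0.16 to 0.44 (unadjusted p = 0.337, same test). Without antimiR-195 replicate 3 it was 0.04.

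Nrap codes for a nebulin-related LIM protein that anchors terminal actin filaments and takes part in myofibril assembly. Nrap (ENSMUSG00000049134, chr19:56320035-56390037, minus strand) had 493, 456, 606 and 572 CPM in antimiR-195 replicates 1 to 4, against 573, 498, 513 and 531 CPM in hydrogel replicates 1 to 4. The 2 lowest libraries and the highest one were of antimiR-195, and the hydrogel libraries lay inside the antimiR-195 range. The means were 532 ± 69.1 CPM with antimiR-195 and 529 ± 32.4 CPM with drug-free hydrogel, with a log2 fold change of 0.01 ± 0.13 and an interval of −0.28 to 0.29 (unadjusted p = 0.954, same test, SD, n = 4 each).

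Synpo2l codes for CHAP, a Z-disc PDZ protein of the synaptopodin family that binds alpha-actinin. Synpo2l (ENSMUSG00000039376, chr14:20658946-20668354, minus strand) had 152, 168, 146 and 148 CPM in antimiR-195 replicates 1 to 4, against 159, 120.0, 115 and 138 CPM in hydrogel replicates 1 to 4. Hydrogel replicate 1 lay among the antimiR-195 libraries, above 3 of them, and the other 3 hydrogel libraries lay below all antimiR-195 libraries. The means were 153 ± 9.92 CPM with antimiR-195 and 133 ± 20.1 CPM with drug-free hydrogel (SD, n = 4 each). The log2 fold change was 0.21 ± 0.13 with an interval of −0.08 to 0.49 (unadjusted p = 0.138, same test), and without hydrogel replicate 1 it was 0.29 at an unadjusted p of 0.0487.

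Flnc and Actn2 code for the actin cross-linkers of the group, filamin C and alpha-actinin 2. Filamin C links the Z-disc to the membrane and to the intercalated disc and is known to unfold and be replaced under load. Flnc (ENSMUSG00000068699, chr6:29433256-29461883, plus strand) had 261, 288, 314 and 265 CPM in antimiR-195 replicates 1 to 4, against 287, 262, 243 and 276 CPM in hydrogel replicates 1 to 4. The groups overlapped, with antimiR-195 replicate 3 highest and hydrogel replicate 3 lowest. The means were 282 ± 24.4 CPM with antimiR-195 and 267 ± 19.0 CPM with drug-free hydrogel, a log2 fold change of 0.08 ± 0.11 with an interval of −0.17 to 0.33 (unadjusted p = 0.507, same test, SD, n = 4 each).

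Alpha-actinin 2 is the main cross-linker of the cardiac Z-disc. Actn2 (ENSMUSG00000052374, chr13:12269426-12340760, minus strand) had 2014, 1833, 1931 and 2167 CPM in antimiR-195 replicates 1 to 4, against 2331, 1896, 2147 and 1878 CPM in hydrogel replicates 1 to 4. The lowest library was antimiR-195 replicate 2 and the highest hydrogel replicate 1. The means were 1986 ± 141 CPM with antimiR-195 and 2063 ± 217 CPM with drug-free hydrogel (SD, n = 4 each), and the log2 fold change was −0.05 ± 0.13 with an interval of −0.34 to 0.24 (unadjusted p = 0.686, same test). The highest level was 1.27 times the lowest, the narrowest range of the 10 genes.

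Ldb3 codes for Cypher (ZASP), a PDZ-LIM protein that holds alpha-actinin at the Z-disc. Ldb3 (ENSMUSG00000021798, chr14:34526603-34588682, minus strand) had 822, 697, 916 and 922 CPM in antimiR-195 replicates 1 to 4, against 916, 995, 942 and 821 CPM in hydrogel replicates 1 to 4. AntimiR-195 replicate 2 was the lowest of all libraries, and hydrogel replicates 2 and 3 lay above every antimiR-195 library. The means were 839 ± 106 CPM with antimiR-195 and 918 ± 72.6 CPM with drug-free hydrogel (SD, n = 4 each), and the log2 fold change of −0.13 ± 0.13 with an interval of −0.43 to 0.17 was the most negative of the 10 (unadjusted p = 0.353, same test). Without antimiR-195 replicate 2 it was −0.06.

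Myoz2 codes for myozenin 2 (calsarcin-1), which ties calcineurin to alpha-actinin at the Z-disc. Myoz2 (ENSMUSG00000028116, chr3:123006206-123035015, minus strand) had 721, 895, 649.8 and 777 CPM in antimiR-195 replicates 1 to 4, against 758, 731, 859.7 and 678 CPM in hydrogel replicates 1 to 4. The groups interleaved, with antimiR-195 replicates 3 and 2 at the ends of the range. The means were 761 ± 104 CPM with antimiR-195 and 757 ± 76.2 CPM with drug-free hydrogel (SD, n = 4 each), and the log2 fold change was 0.01 ± 0.14 with an interval of −0.30 to 0.31 (unadjusted p = 0.958, same test), or −0.09 without antimiR-195 replicate 2.

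Csrp3 codes for muscle LIM protein, a small Z-disc and cytosolic protein known in the response of cardiomyocytes to stretch. Csrp3 (ENSMUSG00000030470, chr7:48830398-48848033, minus strand) had 1048, 1579.8, 916 and 958 CPM in antimiR-195 replicates 1 to 4, against 1218, 1106, 1349.8 and 950.1 CPM in hydrogel replicates 1 to 4. AntimiR-195 replicate 2 was the highest library and the other 3 antimiR-195 libraries were among the 4 lowest. The means were 1126 ± 308 CPM with antimiR-195 and 1156 ± 169.7 CPM with drug-free hydrogel (SD, n = 4 each), with a log2 fold change of −0.04 ± 0.19 and an interval of −0.47 to 0.39 (unadjusted p = 0.847, same test). With antimiR-195 replicate 2 left out it was −0.26, with replicate 3 left out 0.05, and neither was called.

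Des codes for desmin, the intermediate filament of muscle, which surrounds the Z-discs and ties them to the intercalated discs and the nucleus. Des (ENSMUSG00000026208, chr1:75360329-75368579, plus strand) had 2728, 3648, 2346 and 2666 CPM in antimiR-195 replicates 1 to 4, against 3018, 2324, 2822 and 2559 CPM in hydrogel replicates 1 to 4. AntimiR-195 replicate 2 was again the highest, and the other libraries interleaved. The means were 2847 ± 559.9 CPM with antimiR-195 and 2681 ± 304 CPM with drug-free hydrogel (SD, n = 4 each), a log2 fold change of 0.09 ± 0.17 with an interval of −0.28 to 0.45 (unadjusted p = 0.613, same test), and −0.07 without antimiR-195 replicate 2. Desmin is also made by smooth muscle cells, whose 9 listed markers summed to 640, 995, 619 and 606 CPM in antimiR-195 replicates 1 to 4, against 638, 581, 498 and 609 CPM in hydrogel replicates 1 to 4. Of these markers, 6 had a log2 fold change above 0 and 3 below, with 0 called. The part of smooth muscle in the Des level was not tested.

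**Figure D2:**
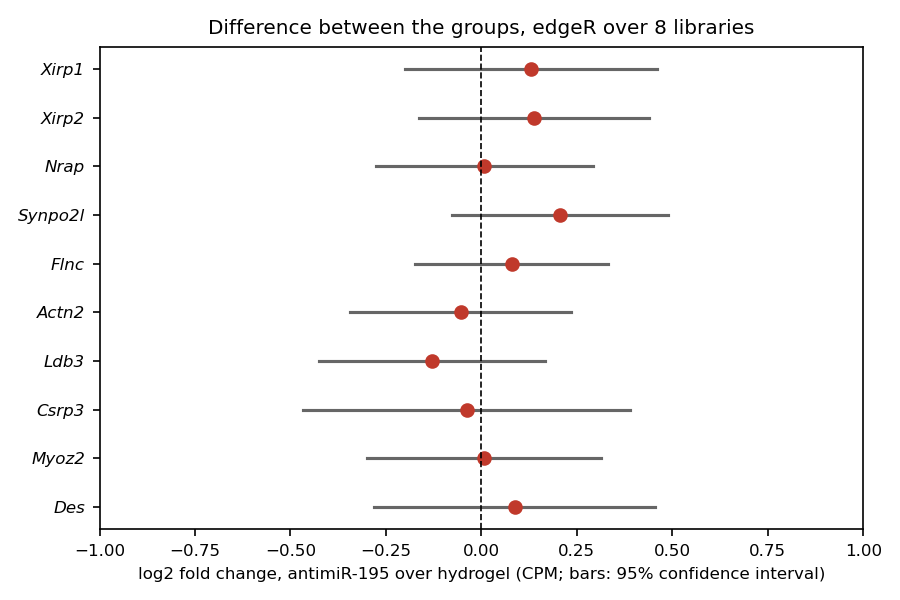
Log2 fold change, antimiR-195 over hydrogel, of each of the 10 genes (horizontal axis) with its 95% interval from the edgeR quasi-likelihood fit over all genes and all 8 libraries. Every interval spans 0.

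Levels of the 10 genes were compared with each other only per length, as the authors' deposited RPKM, which scales reads by library depth and by the length of the gene model. Csrp3 was the highest of the 10, with 1173 ± 347 RPKM with antimiR-195 and 1174 ± 143 RPKM with hydrogel. Des followed with 768 ± 167 RPKM with antimiR-195 and 708 ± 82.4 RPKM with hydrogel, and Actn2 with 543 ± 31.7 RPKM with antimiR-195 and 553 ± 57.4 RPKM with hydrogel. Myoz2 had 226 ± 34.7 RPKM with antimiR-195 and 220.2 ± 15.9 RPKM with hydrogel. Ldb3 had 141 ± 14.7 RPKM with antimiR-195 and 151 ± 8.80 RPKM with hydrogel. The adaptor genes were lower: Nrap had 97.2 ± 10.5 RPKM with antimiR-195 and 95.2 ± 7.88 RPKM with hydrogel, and Xirp2 had 51.0 ± 7.11 RPKM with antimiR-195 and 45.6 ± 4.79 RPKM with hydrogel. Each of these 7 genes exceeded the next lower one in 8 of 8 libraries. The last 3 lay close together: Synpo2l had 33.5 ± 2.89 RPKM with antimiR-195 and 28.6 ± 4.98 RPKM with hydrogel. Flnc had 29.8 ± 2.51 RPKM with antimiR-195 and 27.8 ± 2.76 RPKM with hydrogel. Xirp1 had 30.2 ± 1.81 RPKM with antimiR-195 and 27.2 ± 5.49 RPKM with hydrogel (all SD, n = 4 each). Synpo2l exceeded Flnc in 5 of 8 libraries and Flnc exceeded Xirp1 in 4 of 8, so these 3 genes did not differ beyond their spread. By mean RPKM, Csrp3 ranked 38th among all genes and Xirp1 1634th.

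The members were also set against the sarcomere of the same library, as counts per 1000 counts of the 10 reference genes. Myoz2 had the most even ratio on this scale, with 8.45, 9.18, 8.95 and 9.70 in antimiR-195 replicates 1 to 4, against 9.15, 9.21, 9.60 and 9.39 in hydrogel replicates 1 to 4. Its highest value was 1.15 times the lowest, whereas the ratio of Xirp1 differed 2.04-fold between its extremes. With RPKM in place of counts, Csrp3 was the most even (1.20-fold between extremes), followed by Des (1.22) and Myoz2 (1.26). The Csrp3 ratio was 12.3, 16.2, 12.6 and 12.0 in antimiR-195 replicates 1 to 4, against 14.7, 13.9, 15.1 and 13.1 in hydrogel replicates 1 to 4. AntimiR-195 replicates 1, 3 and 4 lay below the 4 hydrogel libraries and replicate 2 above them. In RPKM, antimiR-195 replicate 2 lay within the hydrogel libraries. The Xirp2 ratio was 5.92, 6.30, 9.94 and 7.24 in antimiR-195 replicates 1 to 4, against 6.95, 6.83, 5.55 and 8.13 in hydrogel replicates 1 to 4. AntimiR-195 replicate 3 was the highest there, and the remaining libraries interleaved. Across the 10 genes the log2 difference of this ratio, antimiR-195 minus hydrogel, ran from −0.18 (Ldb3) to 0.17 (Synpo2l), and in no gene were the groups separate. Without antimiR-195 replicate 2 it was −0.020 for Ldb3, −0.21 for Csrp3 and 0.20 for Synpo2l. Summed, the 10 genes held 8907, 10346, 8739 and 9231 CPM in antimiR-195 replicates 1 to 4, against 10012, 8654, 9607 and 8584 CPM in hydrogel replicates 1 to 4. The mean sums were 9306 ± 723 CPM with antimiR-195 and 9214 ± 707 CPM with hydrogel (SD, n = 4 each), a difference well within the spread.

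The spread between libraries of one group differed among the members. Its pooled SD on the log2 CPM scale was lowest for Flnc, at 0.11, and highest for Csrp3, at 0.30. Among the 4506 tested genes whose log2 CPM averaged 5 or more, and whose median SD was 0.20, Flnc stood at the 14.9th percentile and Csrp3 at the 75.2nd. Actn2 had 0.13, Nrap 0.15, and Ldb3 and Synpo2l 0.16. Xirp2 and Myoz2 had 0.17, and Xirp1 and Des 0.22. Flnc, Actn2, Nrap, Ldb3, Synpo2l, Xirp2 and Myoz2 thus varied less than the median of these 4506 genes, which were not matched to the members in abundance.

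The members did not vary as one block. Over the 8 libraries, 25 of the 45 pairs of genes had a positive and 20 a negative Pearson correlation of log2 CPM, from −0.73 to 0.93. Xirp2 and Flnc had r = 0.930 (exact two-sided permutation p = 4.96e-04 over 40320 pairings, adjusted over 45 pairs p = 0.0223) and rho = 0.929 (adjusted p = 0.1004 by the exact permutation test). Without the 2 libraries farthest from the Xirp2 median, antimiR-195 replicate 3 and hydrogel replicate 3, r was 0.757, and without antimiR-195 replicate 2 it was 0.926. It was the only pair past the threshold, by Pearson's r only. Leaving out 1 library at a time gave r of 0.857 to 0.958, with adjusted p of 0.00893 to 0.277 by the exact permutation test. The call was lost without antimiR-195 replicate 1, 2 or 3 and without hydrogel replicate 2 or 3, and with log2 RPKM in place of log2 CPM (exact permutation adjusted p = 0.0625).

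Csrp3 and Myoz2 had r = 0.887 (exact permutation p = 0.00305, adjusted p = 0.0686) and rho = 0.857, and r was 0.577 without the 2 libraries farthest from the Csrp3 median, antimiR-195 replicate 2 and hydrogel replicate 3. Csrp3 and Des had r = 0.825 (exact permutation p = 0.0105, adjusted p = 0.157), and 0.550 without those libraries. Des and Myoz2 had r = 0.792 (exact permutation adjusted p = 0.188). The most negative pair was Ldb3 and Des, with r = −0.73 (exact permutation p = 0.047, adjusted p = 0.404). The 3 positive relations among Csrp3, Myoz2 and Des did not pass the adjusted threshold, and those of Csrp3 rested in part on the libraries left out. Csrp3 with Myoz2 passed only without antimiR-195 replicate 4 (r = 0.983, exact permutation adjusted p = 0.00893). Xirp1, the relative of Xirp2, had r = 0.654 with it (exact permutation adjusted p = 0.474), which became 0.0780 when antimiR-195 replicate 3 and hydrogel replicate 3 were left out.

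**Figure D3:**
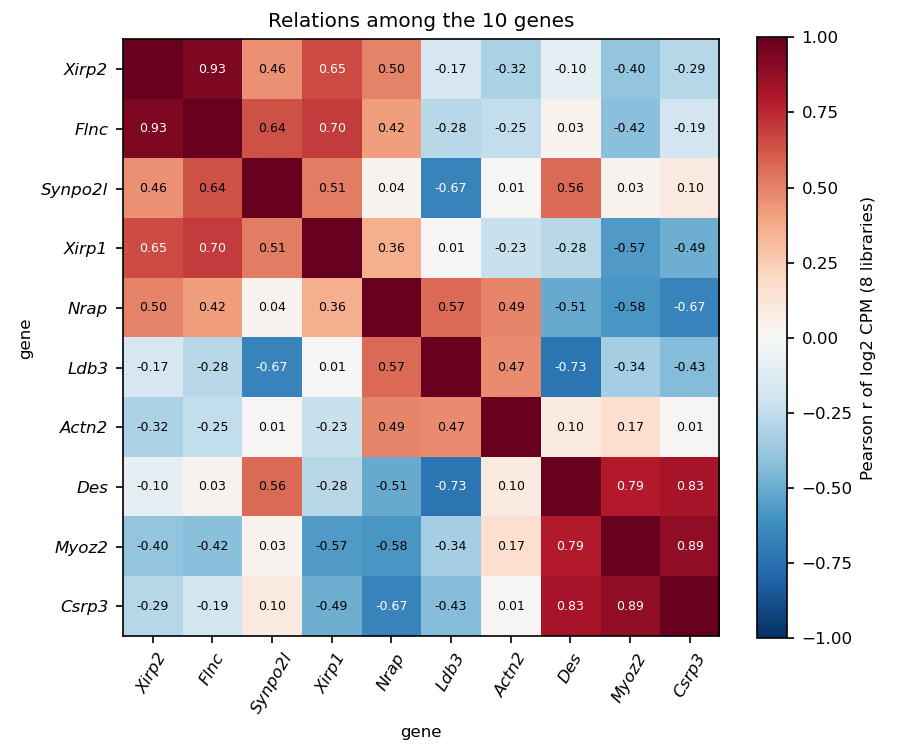
Pearson r of log2 CPM over 8 libraries for the 45 pairs of the 10 genes, as colours from negative to positive with the value in each cell. Xirp2 with Flnc (0.93) is the strongest pair, Csrp3, Des and Myoz2 form a positive block, and Ldb3 with Des (−0.73) is the most negative pair.

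**Figure D4:**
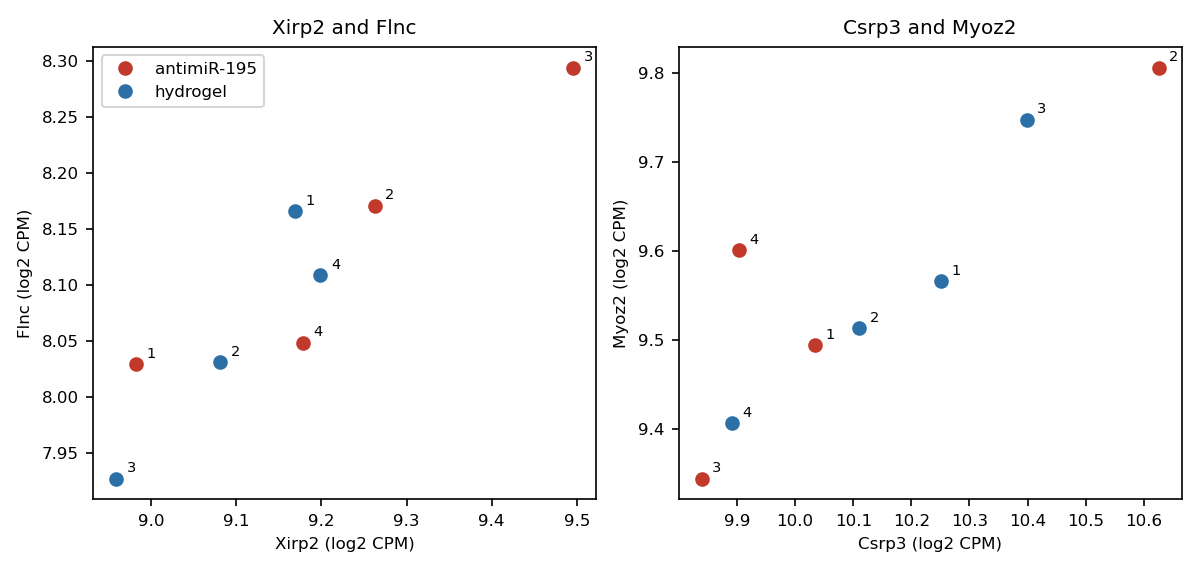
Log2 CPM of Xirp2 against Flnc and of Csrp3 against Myoz2 in the 4 antimiR-195 and the 4 hydrogel libraries, numbered by replicate. Libraries of both groups lie along the same trend in each panel, and antimiR-195 replicate 2 is the far point of the Csrp3 panel.

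Libraries also differed in how abundance depended on gene length, measured over all tested genes as the slope of log2 CPM, relative to the mean of the libraries, per doubling of the counted length. Relating the members to this slope was a step added after the data had been seen. The slope and the members' levels came from the same counts, so the p-values below do not compare independent measurements. The slope was −0.03, −0.21, 0.15 and 0.06 in antimiR-195 replicates 1 to 4, against −0.02, 0.05, −0.08 and 0.07 in hydrogel replicates 1 to 4. Csrp3, the shortest member with a counted length of 973 bases, varied closely against it (r = −0.935, exact permutation p = 8.18e-04, adjusted over 10 genes p = 0.00818, rho = −0.929). Without antimiR-195 replicates 2 and 3, the farthest libraries on that axis, r was −0.837. Des (3754 bases) had r = −0.911 and Myoz2 (3399 bases) r = −0.889 (both exact permutation adjusted p = 0.00942), and −0.664 and −0.691 without those libraries. The adjusted p of rho was 0.0223 for Csrp3 and 0.0931 for both Des and Myoz2 by the exact permutation test. The other 7 genes did not pass the threshold, with r from −0.262 (Synpo2l) to 0.767 (Nrap, 0.222 without those libraries). Xirp2, the longest member with 11979 bases, had r = 0.366, or 0.771 without them. Flnc (9543 bases) had 0.254, or 0.466 without them, and Xirp1 0.482, or 0.752 without them. Actn2 (3694 bases), close in length to Des and Myoz2, had r = 0.033, or −0.521 without them. Against the mean log2 CPM of the other 7 libraries, antimiR-195 replicate 2 lay at 0.56 for Csrp3, 0.47 for Des and 0.28 for Myoz2. For Actn2 it lay at −0.16, with a counted length between those of Myoz2 and Des. The part of length in these values was not tested. With the length trend removed from each library, the log2 fold change of Csrp3 was −0.12 ± 0.10 (unadjusted p = 0.233, same edgeR test), with an SE of 0.10 against 0.19 before.

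**Figure D5:**
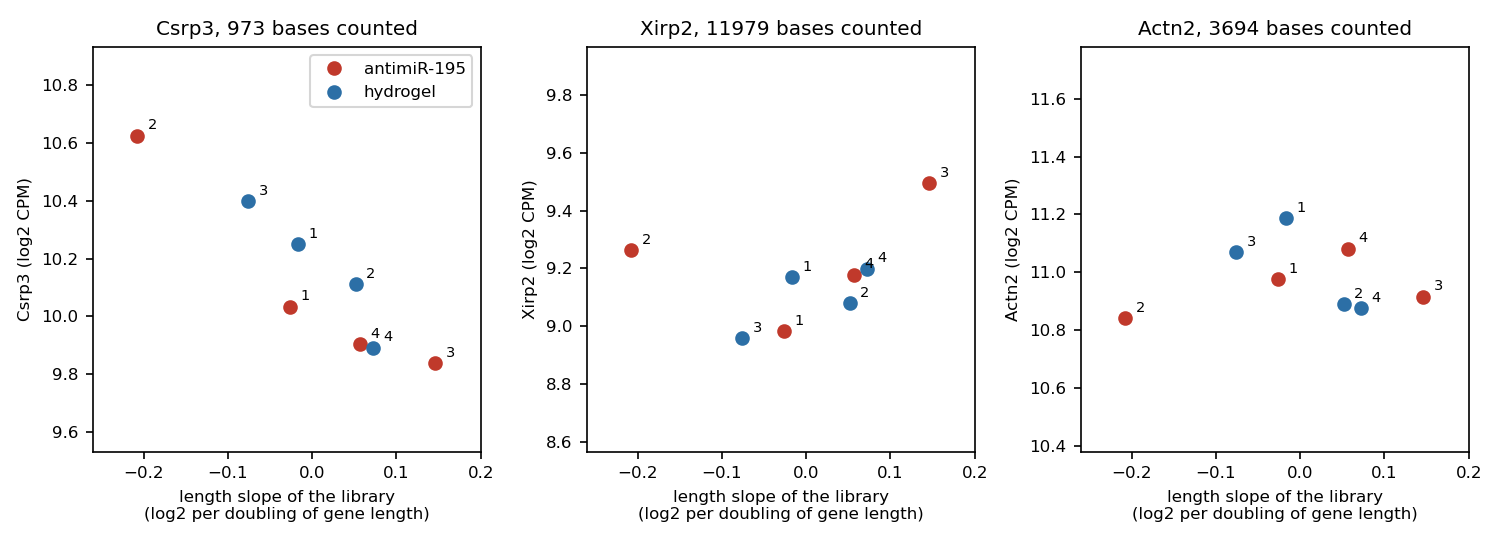
Log2 CPM of Csrp3, Xirp2 and Actn2 (vertical axis, a panel per gene) against the length slope of each library (horizontal axis). Points are the 4 antimiR-195 and the 4 hydrogel libraries, numbered by replicate. Csrp3 (973 bases) falls as the slope rises (r = −0.935), while r was 0.366 for Xirp2 (11979 bases) and 0.033 for Actn2 (3694 bases).

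Genes of the same structures were examined as lists. Of 36 other Z-disc and costamere genes, 35 were tested, 16 with a log2 fold change above 0 and 19 below, with 0 called and a median of −0.0035 (the laminin receptor subunit Itga7 had 0.24 ± 0.12 and the LIM protein gene Fhl2 −0.24 ± 0.14). Of 24 intercalated disc junction genes, 11 were above and 13 below 0, with 0 called and a median of −0.02 (the connexin gene Gjc1 had 0.10 ± 0.11). Of 17 tested genes of filamin C partners and chaperone-assisted clearance, the route that replaces unfolded filamin, 7 were above and 10 below 0, with 0 called and a median of −0.02 (Flna had 0.28 ± 0.18 and the small heat shock protein gene Hspb7 −0.17 ± 0.12). Of 14 SRF, MEF2 and partner factor genes, 8 were above and 6 below 0, with 0 called and a median of 0.03 (Hopx had −0.29 ± 0.19 and Mrtfa 0.19 ± 0.13). Single libraries moved these tallies. With antimiR-195 replicate 2 left out they were 19 above and 16 below 0 for the Z-disc and costamere list, 20 and 4 for the intercalated disc, 7 and 10 for the filamin C list, and 10 and 4 for the SRF and MEF2 list. Without antimiR-195 replicate 3 they were 12 and 23, 5 and 19, 7 and 10, and 2 and 12 in the same order. None of these 4 lists held a gene at an unadjusted p under 0.05, and DESeq2, limma-voom and limma-trend also called 0.

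The 11 tested cardiac stress genes had a higher median, 0.27, with 9 above and 2 below 0, and again 0 called by edgeR and the other tools. Of these, 2 had an unadjusted p under 0.05: Myh9, non-muscle myosin, with 0.52 ± 0.19, and the skeletal actin gene Acta1 with 0.62 ± 0.28. Without antimiR-195 replicate 2 the median was −0.02, with 5 above and 6 below 0. The sarcomere reference had a median of 0.07 with 8 above and 2 below 0, and −0.10 with 3 above and 7 below without that library (Mybpc3 had 0.20 ± 0.14 and Tnnc1 0.34 ± 0.28).

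Other tissues that hold some of the members were checked with markers. Of 18 skeletal muscle markers 6 were tested, and the fast myosin genes Myh1, Myh2 and Myh4 had at most 6 counts in any library. Ckm, which heart muscle shares, had −0.06 ± 0.17, beside Mybpc2 with 0.31 ± 0.22 and Casq1 with 0.34 ± 0.25, and the list summed to 1697 to 2481 CPM in the antimiR-195 libraries and 1812 to 2702 CPM in the hydrogel libraries. The smooth muscle genes of smallest p were Acta2 (0.53 ± 0.29) and Tagln (0.56 ± 0.31), both highest in antimiR-195 replicate 2. Acta2 stood there at 509 CPM, against 192 to 254 CPM in the other antimiR-195 libraries and 154 to 232 CPM with hydrogel. Tagln stood at 151 CPM, against 52.6 to 69.2 CPM and 49.1 to 63.1 CPM in the same order. Of 7 atrial markers 6 were tested, 4 above and 2 below 0, and they summed to 729 to 1988 CPM with antimiR-195, highest in replicate 2, and 555 to 1010 CPM with hydrogel (Nppa had 0.48 ± 0.32 and Sln 0.42 ± 0.87, while Bmp10 had no counts). The 10 fibroblast and matrix genes summed to 6677 to 9277 CPM with antimiR-195 and 4665 to 8798 CPM with hydrogel, with 8 above and 2 below 0 (Tnc 0.72 ± 0.28, Timp1 0.78 ± 0.38 and Col3a1 0.08 ± 0.19). The 10 macrophage and monocyte genes summed to 1154 to 1899 CPM with antimiR-195 and 1364 to 1878 CPM with hydrogel, with 3 above and 7 below 0 (Ccr2 −0.32 ± 0.13, Ly6c2 0.84 ± 0.38 and Lyz2 −0.17 ± 0.19). The 8 endothelial markers summed to 1333 to 1831 CPM with antimiR-195 and 1284 to 1585 CPM with hydrogel, with 4 on each side of 0 (Tie1 −0.15 ± 0.12 and Fabp4 0.20 ± 0.23). Without antimiR-195 replicate 2 the tallies above and below 0 were 2 and 4 for the atrial, 2 and 4 for the skeletal muscle, 8 and 1 for the smooth muscle, 9 and 1 for the fibroblast, 2 and 8 for the macrophage and 3 and 5 for the endothelial list. None of these lists held a called gene, and their part in the members' levels was not tested.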

How the data were processed

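Per the labels' protocols, TRIzol RNA went into TruSeq stranded mRNA libraries. STAR, HTSeq, DESeq and GRCm38 are named in the submitters' processing notes, without versions. Which annotation release and strand setting were used for counting is not given in the sources used here. Whole-number counts per Ensembl gene and RPKM values were deposited by the authors. The deposited counts of the single libraries and of the series table were the same, with 0 differing cells. Reads aligned to several places made up 42.1% to 47.8% of all counting lines and stayed out of the totals, as did the other lines without a gene. Of 38293 identifiers, 36345 had a name in GENCODE M21, from which positions and 3′ UTRs were taken. Promoters and microRNAs came from RefSeq tables of GRCm38.p6.

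Genes kept by filterByExpr (13972) were fitted with edgeR 4.0.16 in R 4.3.3 (TMM, quasi-likelihood, 2 groups, Benjamini-Hochberg adjustment over all tested genes, threshold 0.05). The CPM shown are TMM-scaled. Fold changes are antimiR-195 over hydrogel. DESeq2 1.42.0, limma 3.58.1 (voom, and trend on log2 of RPKM with pseudocounts of 0.1 and 1), other scaling and filters, a sarcomere covariate, removal of the length trend and omission of each library were tried as alternatives. Correlations used exact permutation of pairings. Members had 2448 counts or more per library, and the part of counting error in the spread was not tested.

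Libraries were grouped by the drug label, and replicates numbered in accession order. Genes named were the 10 members, the 2 genes of smallest p in each other list, and the gene of highest mean CPM in each list of another cell type, and 1 gene that this rule names is not reported here. The members and lists were chosen with earlier results of these data known.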

Additional observations from a re-analysis of the deposited data

Results flagged for a closer look

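Csrp3 per 1000 counts of the sarcomere reference genes stood at 16.2 in antimiR-195 replicate 2, against 12.0 to 12.6 in the other 3 antimiR-195 libraries, a gap of 0.847 of the group's range, above Dixon's critical value for 4 samples. Dixon's criterion marks about 1 group in 20 by chance, and 40 groups of 4 libraries were examined. With RPKM in place of counts, the ratio was 34.5 in that library, against 29.3 to 32.7 in the other antimiR-195 libraries and 33.1 to 35.1 in the hydrogel libraries. In that library short transcripts were relatively abundant (slope −0.21 per doubling of length). Their part in the Csrp3 value was not tested.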

How the results depend on the processing

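Under 19 alternatives, 0 genes and 0 members were called, with 104 to 440 genes at an unadjusted p under 0.05. Of 190 member fold changes, 169 kept their sign. Signs turned with limma-voom quality weights for Des (−0.027) and Myoz2 (−0.018), with the sarcomere covariate for Des (−0.018) and Myoz2 (−0.071). They also turned without antimiR-195 replicate 2 after removal of the length trend, for Flnc (−0.022), Des (−0.061) and Myoz2 (−0.077). The last setting, and those for the correlations, were added after the data had been seen. The cause was not tested. Leaving out 1 library at a time gave log2 fold changes of −0.062 to 0.065 for Nrap, −0.26 to 0.048 for Csrp3, −0.11 to 9.45e-06 for Actn2, −0.065 to 0.17 for Des and −0.090 to 0.075 for Myoz2. It gave 0.0040 to 0.20 for Xirp1, 0.041 to 0.21 for Xirp2, 0.023 to 0.11 for Flnc, −0.19 to −0.060 for Ldb3 and 0.14 to 0.29 for Synpo2l. The count of gene pairs past the adjusted threshold, 1 in the report, was 0 with log2 RPKM, where Xirp2 and Flnc had r = 0.929, and 0 to 2 with 1 library left out. The 100 alternative log2 differences per sarcomere count each moved from the reported value by less than its SD between libraries, and ran from −0.29 to 0.25 with 1 library left out. With 1 library left out this outcome was fixed in advance, because omitting 1 of 4 libraries cannot move a group mean that far. Only the ratios to Myh6, Tnnt2 and Actc1 alone, or in RPKM, could have moved further. No paired analysis was possible because the replicate numbers follow accession order and pair nothing across the groups. With 4 libraries a group, the median half-width of a 95% interval was 0.37 on the log2 scale. This median covers tested genes whose average log2 CPM was not negative, and such widths limit the differences that could be seen.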
